A study of Mus musculus with 12 samples.

Results

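Gene expression was compared between liver and thymus in control invariant natural killer T cells of type 1 (iNKT1 cells). The comparison rests on 3 liver and 3 thymus libraries, 6 of the 12 RNA-seq libraries of the series. It covers every gene that reached a deposited value of 10 in 3 or more of these 6 libraries, which held for 11410 of the 14004 genes in the authors' table. All mice carried Tbx21Cre, a Cre recombinase driven by the promoter of Tbx21, the gene of the transcription factor T-bet, and a Rosa26-YFP reporter that Cre switches on. Control mice had no further allele. The other genotype, cKO, also carried Ets1F/F, floxed alleles of the transcription factor gene Ets1, and is used here only where it is named. Cells were sorted as binding CD1d tetramer and as YFP+, so every group holds cells that have expressed Tbx21 at some point, and a cell marked in the past stays marked. The sources used here do not state the age of the mice. The design text speaks of independent replicates, but no label says that the 3 libraries of a group came from separate mice, so the p-values measure only how far these samples differ from one another, a spread that may be technical.

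iNKT cells are T cells with a nearly invariant antigen receptor that reads lipids presented by CD1d. They arise in the thymus, where part of the T-bet-dependent iNKT1 subset stays for long periods, and they are abundant in the sinusoids of the mouse liver. iNKT1 cells carry receptors of NK cells, respond to IL-15, IL-12 and IL-18, and produce interferon-gamma. Chemokine receptors and integrins set which tissue such cells enter and hold on to.

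Values below are the authors' read counts after an adjustment for library size, listed for libraries 1, 2 and 3 of a tissue in that order. Fold changes are liver against thymus, estimated with limma as differences of log2(value + 1) and given ± SE, and adjusted p-values come from the same limma fit over all tested genes. A gene was called at an adjusted p under 0.05. The whole reads recovered per library came to 18.5 to 27.7 M (M, 1e6 reads) in the thymus libraries and to 31.6, 27.7 and 3.87 M in the liver libraries. One read was thus worth 6.06 deposited units in liver library 3 and between 0.858 and 1.25 in the other 5. Thymus libraries 1 and 2 stood apart, with 3528 and 2824 genes of the table without a read against 1782 in thymus library 3 and 966 to 2223 in liver, and Pearson's r between log2 values was 0.62 to 0.69 within the thymus group and 0.76 to 0.86 within the liver group. Across the groups the number of genes without a read gave a two-sided exact permutation p of 0.3, where 0.1 is the smallest that 3 against 3 libraries allow.

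Between the tissues 86 genes were called, 0.754% of those tested: 46 were higher in liver (0.403%) and 40 lower (0.351%). The calls fell on receptors of NK cells, cytokine receptors, chemokine receptors and integrins, among others. In a bulk library a change in the number of cells that express a gene cannot be told apart from a change in RNA per cell. In liver the NK receptor genes Klrd1, Klrk1 and 3 Ly49 genes, the IL-7 receptor gene Il7r and both IL-18 receptor genes were lower, while the chemokine receptor genes Cxcr6, Ccr2 and Ccr9 and the ATP receptor gene P2rx7 were higher. In all 86 genes the 3 liver values lay on one side of the 3 thymus values, which was so for 15.8% of tested genes (9.32% with liver above and 6.52% with liver below). The plot of fold change against mean level shows that calls at a low mean needed large fold changes. The median log2 fold change over all tested genes was 0.23, and 58.2% were positive. Rescaling with TMM factors (edgeR's trimmed mean of M-values) moved that median to -0.07 and gave 38 genes higher and 71 lower, while rescaling without mitochondrial genes moved it to 0.40. Among the rises described below, Il2rb, H2-K1, Rora, Ccr2, Adgre5, Nedd9 and Itgb3 lost their calls after TMM rescaling.

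**Figure D1:**
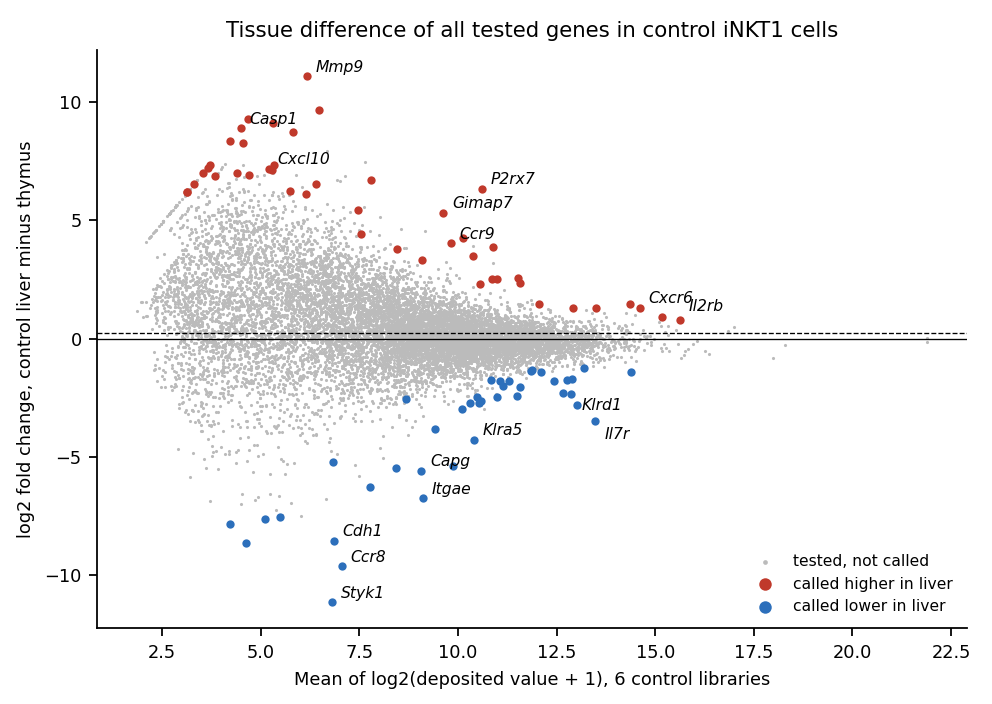
Each point is 1 of 11410 tested genes, with the mean of log2(deposited value + 1) over the 6 control libraries on the x axis and the log2 fold change, liver minus thymus, on the y axis. Red points are the 46 genes called higher in liver and blue points the 40 called lower, and the dashed line is the median of all tested genes, 0.23.

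Of the 86 genes, 26 kept their call when each of the 6 libraries was left out in turn, 10 of them higher in liver and 16 lower. Left out singly, liver library 2 ended 57 of the calls, liver library 3 ended 54, liver library 1 ended 47, thymus library 1 ended 42, thymus library 2 ended 27 and thymus library 3 ended 0. The number of genes called was then 29, 33, 41, 57, 81 and 438 in that order. None of the 86 changed sign under any setting run. A fit of the 6 control libraries alone, which estimates the spread without the cKO libraries, called 8 genes, 7 of them among the 86. Styk1, Il7r, Capg, Klra5, Klrd1 and Ssh2 were called under every setting run.

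Genes that define iNKT1 cells were present in both tissues. Ets1 stood at 23692, 28051 and 19493 in thymus and at 18773, 18528 and 15910 in liver (log2 fold change -0.41, limma adjusted p = 0.56). In the cKO libraries Ets1 stood at 11817, 7069 and 5788 in thymus and at 3594, 4425 and 5787 in liver, each below every control value. Tbx21 stood at 1386, 5762 and 1868 in thymus and at 2353, 3513 and 2321 in liver (0.12, limma adjusted p = 0.94). The liver values of Tbx21 lie inside the range of the thymus values. Zbtb16, which encodes the iNKT lineage factor PLZF, stood at 1661, 2905 and 3305 in thymus and at 1216, 2288 and 1230 in liver (-0.74, limma adjusted p = 0.44). The T cell receptor genes Trac and Cd3e, at log2 fold changes of -0.46 and 0.29, were not called either. Of 13 iNKT and T cell identity genes tested, 1 was called, Il2rb, against 0.754% of all tested genes. The median log2 fold change of the list was 0.29.

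NK receptor genes held the largest group of calls among the gene lists. Of 24 tested, 7 were called lower in liver and 0 higher, and their median log2 fold change was -1.92. Over all tested genes 0.351% were called lower. Of the 24, 14 had all liver values below all thymus values, against 6.52% of all tested genes. Among its members are CD94 and the NKG2 chains that pair with it to read MHC class I-like ligands. NKG2D, NKR-P1 receptors and Ly49 receptors are others, and most Ly49 receptors are inhibitory receptors for MHC class I in mice. Klrd1 (ENSMUSG00000030165, chromosome 6, 129591782 to 129598775, plus strand, GRCm38), the gene of the CD94 chain, stood at 17224, 13285 and 20458 in thymus and at 4044, 2565 and 3447 in liver. All liver values lie well below the lowest thymus value, and the log2 fold change was -2.34 ± 0.28 (limma adjusted p = 0.00041). Klrc2, which encodes the activating partner NKG2C, stood at 5622, 4490 and 2151 in thymus and at 490, 780 and 619 in liver (-2.61 ± 0.50, limma adjusted p = 0.017). Klrk1, the gene of the activating receptor NKG2D, stood at 14029, 15445 and 11780 in thymus and at 5394, 4640 and 2932 in liver (-1.71 ± 0.38, limma adjusted p = 0.040). Klrc1, which encodes the inhibitory partner NKG2A, had a log2 fold change of -1.09 and was not called. Klrd1 kept its call without each library. Klrc2 lost it without thymus library 1 or any of the 3 liver libraries, and Klrk1 without any library other than thymus library 3, with log2 fold changes of -3.02 to -2.33 and -1.89 to -1.45 over these fits.

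Among the Ly49 genes, Klra5 stood at 8175, 4081 and 6264 in thymus and at 678, 164 and 262 in liver (log2 fold change -4.27 ± 0.52, limma adjusted p = 0.00041). Klra1 stood at 2849, 3519 and 2840 in thymus and at 466, 461 and 274 in liver (-2.97 ± 0.37, limma adjusted p = 0.00054). Klra9 stood at 8606, 6857 and 3794 in thymus and at 460, 28.3 and 225 in liver (-5.39 ± 0.84, limma adjusted p = 0.0033). In each of the 3 the groups lay apart by several fold, and each kept its call without any single library, Klra9 at -6.22 without liver library 1 and -4.23 without liver library 2. These genes are close copies of one another, and the sources used here do not say how reads shared between copies were counted, so the division of reads among them is uncertain. The stretch of chromosome 6 from Klre1 to Klra1 (129577905 to 130386874, 809.0 kb) holds CD94 and NKG2 genes beside the Ly49 genes. There the direction was one-sided: all 21 tested genes had a negative fold change, with a median of -2.61. The 6 called were these 3 Ly49 genes and Klrd1, Klrk1 and Klrc2. The neighbouring stretch from Klrb1a to Cd69 (128609227 to 129275436, 666.2 kb), which holds the NKR-P1 receptor genes and their Clec2 ligands, had 10 tested genes, 0 called, 7 positive and a median of 0.45. Both stretches were chosen after their values were seen. Chromosome 6 as a whole held 14 of the 86 calls, 12 of them lower, among 570 tested genes.

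**Figure D2:**
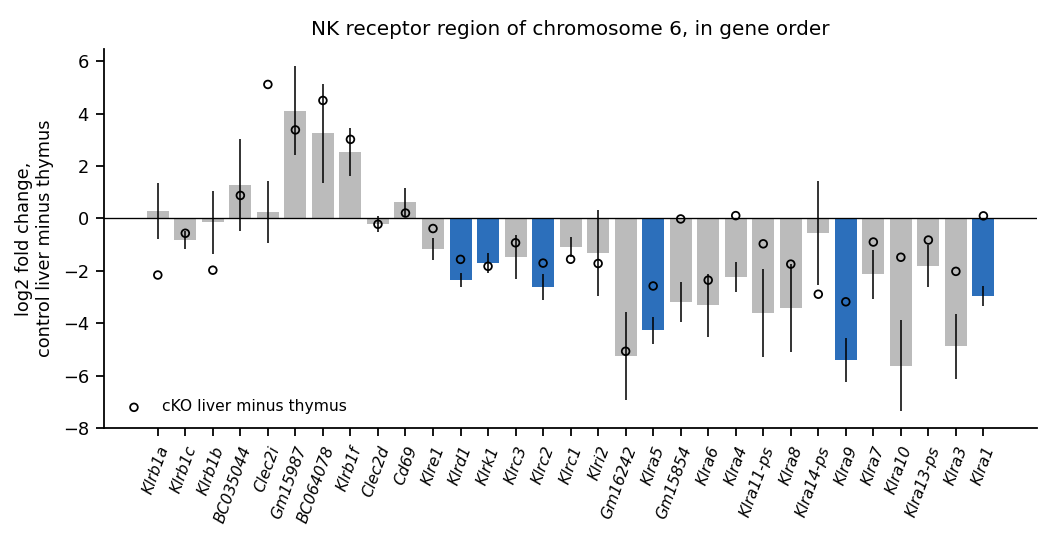
Bars give the log2 fold change, control liver minus thymus, of each tested gene in chromosomal order, with the SE as a line, and open circles give the same contrast in cKO cells. From Klre1 to Klra1 all 21 bars point down, the 6 blue ones were called lower, and grey bars were not called.

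Styk1 had the smallest adjusted p of all genes. It encodes a receptor-like kinase without a known ligand that is expressed in NK cells (ENSMUSG00000032899, chromosome 6, 131299142 to 131353597, minus strand). It stood at 3610, 4717 and 8600 in thymus and at 0, 5.98 and 0.889 in liver, where the 3 libraries held 7 reads in all. Thymus and liver were separated by more than any spread among libraries (log2 fold change -11.12 ± 0.70, limma adjusted p = 6.84e-08). The fold change was -10.50 without liver library 1 and -11.91 without liver library 2. In cKO cells the gene stood at 16111, 10136 and 7747 in thymus and at 3528, 2812 and 1628 in liver (-2.10, limma adjusted p = 0.38). The difference between these 2 tissue effects was -9.03 ± 0.99 (limma adjusted p = 0.00046), and Styk1 was the 1 gene of 11410 (0.00876%) for which that difference was called.

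Receptors for cytokines that sustain iNKT1 cells were called in both directions. Of 22 cytokine receptor genes tested, 3 were called lower and 1 higher, against 0.351% and 0.403% of all tested genes. The median of the list was -0.12, which turned positive after quantile normalization or rescaling without mitochondrial genes. Il7r (ENSMUSG00000003882, chromosome 15, 9505788 to 9530176, minus strand), the receptor chain for the survival cytokine IL-7, stood at 39747, 50118 and 27831 in thymus and at 4131, 4674 and 2109 in liver. All liver values were well below the lowest thymus value (log2 fold change -3.47 ± 0.32, limma adjusted p = 1.86e-05). Both chains of the IL-18 receptor, whose genes lie side by side on chromosome 1, were lower in liver. Il18r1 (40465552 to 40500854, plus strand) stood at 19076, 30824 and 17916 in thymus and at 3763, 5889 and 1382 in liver (-2.81 ± 0.40, limma adjusted p = 0.0014). Il18rap, the accessory chain, stood at 14636, 15469 and 13095 in thymus and at 5874, 7002 and 5397 in liver (-1.25 ± 0.23, limma adjusted p = 0.011). Il2rb, the chain that binds IL-15 and IL-2, was higher in liver, at 38659, 36385 and 40797 in thymus and 61549, 71230 and 67940 in liver (0.79 ± 0.16, limma adjusted p = 0.027). Il7r and Il18r1 kept their calls without each library, Il18r1 at -2.22 without liver library 3. Il18rap lost its call without liver library 1 (-1.22) or 3 (-1.16), and Il2rb without any library but thymus library 3 (0.75 to 0.85 over the 6 fits). Il2rb also lost its call after TMM rescaling, with sample weights and by edgeR. Its lowest log2 fold change over the settings run was 0.48.

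**Figure D3:**
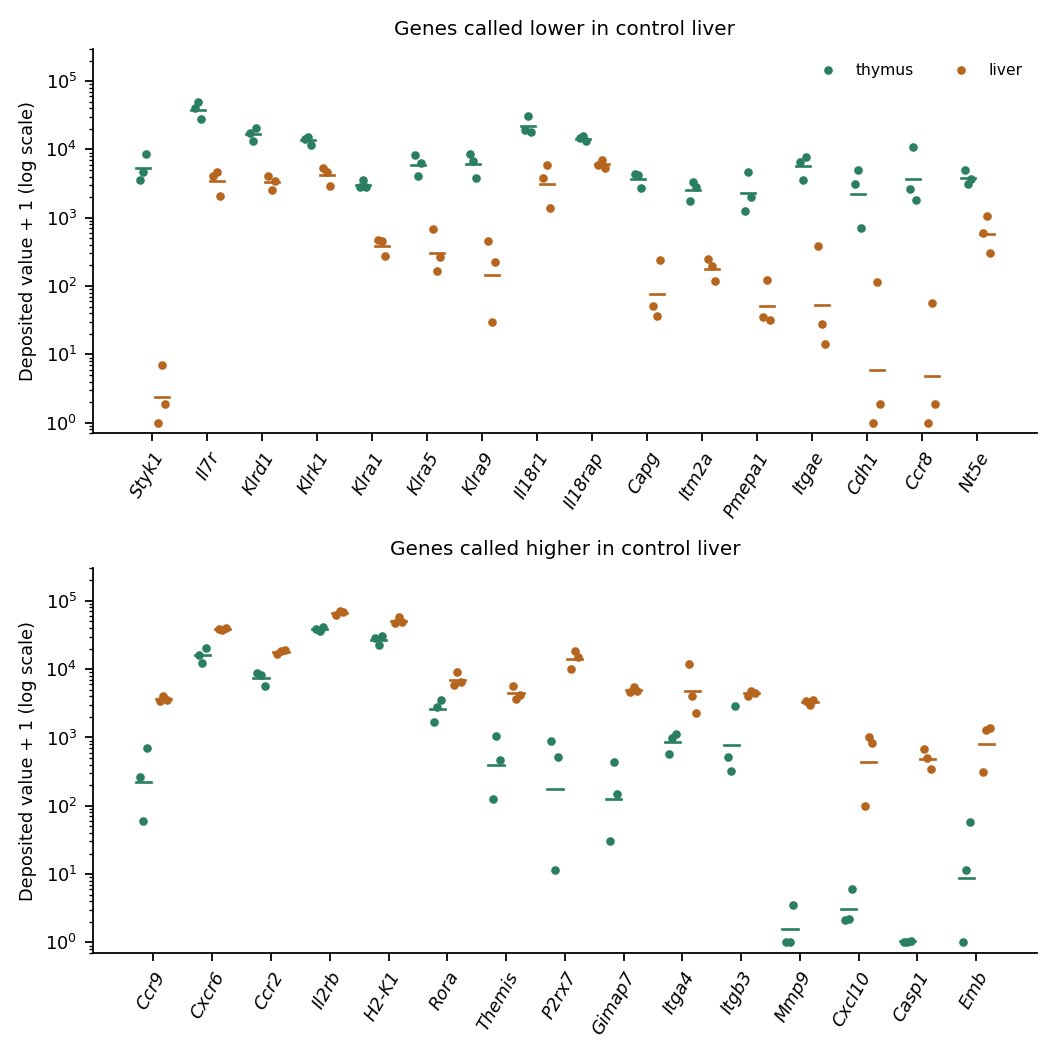
Each point is 1 control library, with the deposited value plus 1 on a log axis, thymus in green and liver in orange, and horizontal lines are the means of the log values. The upper panel holds 16 genes called lower in liver and the lower panel 15 called higher. No liver point crosses a thymus point of the same gene, and the thymus points of P2rx7, Gimap7 and Emb spread over more than those of Il2rb or Cxcr6.

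Most chemokine receptor calls pointed to liver. Of 10 homing and chemokine receptor genes tested, 4 were called higher in liver and 1 lower, against 0.403% and 0.351% of all tested genes. The median log2 fold change of the 10 was 1.25 and their mean -0.11, and the gene farthest from 0 was Ccr8, the 1 called lower. Cxcr6 (ENSMUSG00000048521, chromosome 9, 123806475 to 123811760, plus strand), the receptor for CXCL16, a chemokine displayed by liver sinusoidal endothelium, stood at 16103, 12203 and 20490 in thymus and at 39291, 37694 and 40589 in liver. The liver values lie close together and above all thymus values (log2 fold change 1.30 ± 0.21, limma adjusted p = 0.0045). Ccr9, the receptor for CCL25 and a gut-homing and thymocyte receptor, stood at 262, 59.0 and 693 in thymus and at 3383, 4055 and 3556 in liver (4.04 ± 0.61, limma adjusted p = 0.0027). Ccr2, a receptor of monocytes and effector T cells for CCL2, rose from a mean of 7508 to 17992 (1.29 ± 0.23, limma adjusted p = 0.011). Ccr8, which is better known on regulatory T cells and skin-resident T cells, went the other way, from 2610, 10829 and 1799 in thymus to 0, 55.8 and 0.887 in liver (-9.61 ± 1.6, limma adjusted p = 0.0056). Cxcr3, a receptor of type 1 T cells for CXCL9 and CXCL10, stood at 7054, 2142 and 2578 in thymus and at 8038, 8499 and 7183 in liver, a difference that was not called (limma adjusted p = 0.16).

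Cxcr6, Ccr9 and Ccr8 kept their calls without each library, and Ccr2 lost its call without liver library 2 (log2 fold change 1.27) or 3 (1.24). The log2 fold change of Ccr9 was 3.10 without thymus library 2 and 4.86 without thymus library 3, and that of Ccr8 ran from -11.40 without liver library 2 to -8.48 without liver library 1. Without thymus libraries 1 and 2 together the fold change of Ccr9 went from 4.04 to 2.40 and that of Cxcr6 from 1.30 to 0.94. Cxcr6 lies within Fyco1 on the opposite strand, and Ccr9 overlaps Lztfl1, also on the opposite strand. The sources used here do not state whether counting used strand. Fyco1 and Lztfl1 themselves had log2 fold changes of -0.13 and 0.85 and were not called.

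Adhesion genes were called in both directions, a receptor and its ligand lower in liver and 3 integrin chains higher. Itgae encodes the alpha E chain of the integrin that binds E-cadherin, and Cdh1 encodes E-cadherin itself. Itgae (ENSMUSG00000005947, chromosome 11, 73090583 to 73147446, plus strand) stood at 6590, 3586 and 7786 in thymus and at 382, 26.6 and 13.1 in liver (log2 fold change -6.75 ± 0.98, limma adjusted p = 0.0018). Cdh1 stood at 3112, 4998 and 707 in thymus and at 0, 113 and 0.884 in liver (-8.54 ± 1.76, limma adjusted p = 0.028). The lowest thymus value of either gene lies several fold above its highest liver value. Of 14 integrin chains tested, 3 were called higher and 1 lower, against 0.403% and 0.351% of all tested genes. The median of the 14 was 0.54. Itga4, the alpha 4 chain that binds VCAM-1, stood at 566, 981 and 1104 in thymus and at 11954, 4032 and 2303 in liver (2.50 ± 0.50, limma adjusted p = 0.023). Itgb3, the beta 3 chain, stood at 517, 324 and 2849 in thymus and at 4014, 4842 and 4494 in liver (2.50 ± 0.55, limma adjusted p = 0.039). Itgal, the LFA-1 alpha chain known to hold iNKT cells in the liver, stood at 29315, 21981 and 31142 in thymus and at 47573, 46469 and 39791 in liver and was not called (limma adjusted p = 0.13).

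Itga1, the collagen-binding alpha 1 chain, stood at 8799, 8298 and 7964 in thymus and at 4178, 3052 and 4136 in liver and was not called either (limma adjusted p = 0.16). Of 23 tissue residency genes tested, 3 were called higher and 2 lower, against 0.403% and 0.351% of all tested genes. The 23 had a median of 0.38 and a mean of -0.06. Itgae kept its call without each library (-8.18 without liver library 1 and -5.79 without liver library 3). Cdh1 lost it without thymus library 1 (-8.29) or 2 (-7.95) or liver library 1 (-7.25) or 3 (-7.70) and stood at -10.66 without liver library 2 and -9.36 without thymus library 3. Itga4 lost it without thymus library 1 (2.21) or liver library 1 (1.84) or 2 (2.62). Itgb3 lost it without any library but thymus library 3 (1.87 to 3.44 over the 6 fits), and without thymus libraries 1 and 2 together its log2 fold change was 0.64. Itgae overlaps Haspin and Itga4 overlaps Cerkl, each on the opposite strand, and both neighbours had fold changes of the same sign as the gene they overlap. Haspin stood at -3.28 (limma adjusted p = 0.056) and Cerkl at 2.30 (limma adjusted p = 0.76), neither called, and reads of the overlapping genes cannot be told apart without strand.

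Genes that sense or convert extracellular nucleotides differed as well. P2rx7 (ENSMUSG00000029468, chromosome 5, 122643911 to 122691432, plus strand), an ATP-gated channel that can kill T cells when tissue is damaged, stood at 881, 10.4 and 514 in thymus and at 9921, 18357 and 15109 in liver (log2 fold change 6.34 ± 1.0, limma adjusted p = 0.0034). Nt5e encodes CD73, the ectoenzyme that makes adenosine from AMP. It stood at 4946, 3078 and 3641 in thymus and at 605, 1076 and 304 in liver (-2.71 ± 0.43, limma adjusted p = 0.0034). Both kept their calls without each library, and in both the groups did not overlap. The log2 fold change of P2rx7 was 4.38 without thymus library 2, 7.51 without thymus library 1, 7.12 without thymus library 3 and 4.77 without thymus libraries 1 and 2. Entpd1, the gene of CD39, which acts before CD73, had a log2 fold change of 0.69 and was not called. Of 11 purinergic genes tested P2rx7 and Nt5e were the 2 calls, where 0.754% of all tested genes were called. The median of the 11 was 0.69.

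Promoter sequence was read for 55 of the 86 called genes (25 higher and 30 lower in liver) and for 8282 of all tested genes. Windows ran from 250 bases before to 50 bases after each RefSeq start on GRCm38.p6. A gene with several starts had several windows, and it counted as matching if any of them held the letters. The AP-1 letters TGACTCA, on either strand, were found in 12% of the genes called higher, 10% of those called lower and 4.19% of all genes with a window. The KLF letters GGGTGTGG were found in 12%, 10% and 4.37%. These shares rest on 3 genes each among the called groups. The ETS letters CCGGAAGT stood in 4.0%, 0.0% and 10.6%, the T-box letters AGGTGTGA in 0.0%, 0.0% and 1.05%, and the CRE letters TGACGTCA in 0.0%, 0.0% and 3.78%. A motif of NF-kappa B stood in 0.0%, 0.0% and 0.241%. A match describes the letters of the window and is no evidence of binding. The matches of 3 genes higher in liver that are described here, all with the motif on the opposite strand, are shown 5′ to 3′ on the strand of the gene with the match in capitals: an AP-1 match 74 bases before the start of Cxcl10 (chr5:92348937-92348983, minus strand), an AP-1 match 249 bases before the start of P2rx7 (chr5:122643677-122643704, plus strand) and a KLF match 59 bases before the start of Itga4 (chr2:79255347-79255394, plus strand).
Cxcl10: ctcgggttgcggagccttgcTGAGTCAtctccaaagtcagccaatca
P2rx7: cTGAGTCAcactgggtcttacaacattt
Itga4: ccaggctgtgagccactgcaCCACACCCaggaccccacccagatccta

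Cytokine and chemokine genes made by T cells had positive fold changes in 17 of 18 tested members (median 1.79), but 1 was called, against 0.754% of all tested genes. That gene was Cxcl10, the interferon-gamma-induced ligand of CXCR3, at 1.14, 1.18 and 5.06 in thymus and 99.1, 1006 and 838 in liver (log2 fold change 7.17 ± 1.45, limma adjusted p = 0.025). Every liver value exceeded every thymus value, by the least margin in liver library 1. The call was lost without liver library 2 (6.57) or 3 (6.70), and the fold change was 8.24 without liver library 1. Ccl5, a chemokine stored by effector T cells, stood at 3637, 3356 and 777 in thymus and at 8074, 5903 and 5821 in liver and was not called (limma adjusted p = 0.11). Among 22 interferon-gamma-induced GTPase and MHC class I genes, 1 was called: H2-K1, a classical MHC class I heavy chain, stood at 28425, 22561 and 30646 in thymus and at 47207, 57141 and 49813 in liver (0.92 ± 0.19, limma adjusted p = 0.026). Its call was lost without any library but thymus library 3 (0.80 to 1.02 over the 6 fits), and reads shared with its close copies add to the uncertainty.

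Several genes of T cell receptor and cytokine signalling and of the cytoskeleton were called. Themis, which tunes T cell receptor signals during thymocyte selection, stood at 127, 1043 and 465 in thymus and at 5756, 3685 and 4234 in liver (log2 fold change 3.50 ± 0.54, limma adjusted p = 0.0032). Ptpn6 encodes SHP-1, the phosphatase that acts beside Themis and downstream of inhibitory NK receptors. It stood at 16256, 12080 and 10409 in thymus and at 4229, 3444 and 3829 in liver (-1.73 ± 0.33, limma adjusted p = 0.015). Socs2, a brake on cytokine signals, was higher in liver (2.30), and Ssh2, a cofilin phosphatase, was lower (-2.30), at 10518, 18867 and 14981 in thymus and 2625, 4135 and 2309 in liver. Capg, an actin-capping protein gene, fell from 4437, 4229 and 2719 to 50.4, 36.0 and 243 (-5.58 ± 0.68, limma adjusted p = 0.00041). Vim, the gene of vimentin, stood at 8347, 7064 and 5034 in thymus and at 3247, 848 and 728 in liver (-2.40 ± 0.45, limma adjusted p = 0.013). Themis stood at 2.68 without thymus library 1 and 4.20 without thymus library 2, and Capg at -6.41 without liver library 3. Of 34 T cell receptor signalling genes tested, Themis and Ptpn6 were the 2 calls, where 0.754% of all tested genes were called. The median of the 34 was 0.01. Themis, Socs2, Ssh2 and Capg kept their calls without each library, whereas Ptpn6 lost its call without thymus library 1 (-1.55) or liver library 2 (-1.66) or 3 (-1.73), and Vim without thymus library 1 (-2.24) or liver library 2 (-2.12) or 3 (-2.01), and Vim stood at -3.08 without liver library 1.

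Pmepa1, which is induced by TGF-beta and dampens its signal, stood at 1245, 4652 and 2029 in thymus and at 33.9, 123 and 31.3 in liver (log2 fold change -5.45 ± 0.75, limma adjusted p = 0.0011). It is not a member of the TGF-beta signalling list. In that list 12 of 14 tested members had a negative fold change, 0 were called, where 0.754% of all tested genes were, and the median was -0.66. Of the 14, 5 had all liver values below all thymus values, against 6.52% of all tested genes. Skil, a feedback inhibitor of TGF-beta signalling, stood at 4944, 5534 and 7899 in thymus and at 1956, 1808 and 1927 in liver (limma adjusted p = 0.081). Itm2a, a membrane protein gene of activated and maturing T cells, was also lower in liver (-3.83 ± 0.51, limma adjusted p = 0.0010). Pmepa1 and Itm2a kept their calls without each library, Pmepa1 at -6.08 without liver library 2.

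Of 19 cholesterol synthesis and export genes, the 2 called were both targets of the sterol sensor LXR and both lower in liver. Over all tested genes 0.351% were called lower. Abca1, a cholesterol exporter, stood at 4359, 3689 and 2146 in thymus and at 271, 679 and 667 in liver (log2 fold change -2.71 ± 0.54, limma adjusted p = 0.022). Mylip, whose product degrades the LDL receptor, stood at 5152, 2882 and 4121 in thymus and at 793, 1437 and 1309 in liver (-1.78 ± 0.41, limma adjusted p = 0.049). The list as a whole had a median of 0.56. Both calls were lost without most single libraries, with log2 fold changes of -3.01 to -2.27 for Abca1 and -2.01 to -1.52 for Mylip. Rora, a nuclear receptor gene counted among the circadian clock and effector regulator lists, was higher in liver, at 1693, 2822 and 3534 in thymus and 5911, 8984 and 6433 in liver (1.45 ± 0.28, limma adjusted p = 0.020). Rora lost its call without thymus library 1 (1.15) or liver library 2 (1.26) or 3 (1.51). Gimap7, a GTPase gene of lymphocyte survival, stood at 29.2, 437 and 148 in thymus and at 4669, 5498 and 4784 in liver (5.31 ± 1.11, limma adjusted p = 0.029). It lost its call without thymus library 1 (4.28) or any liver library (5.24 to 5.36) and stood at 6.21 without thymus library 2.

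Further calls fell outside these groups. Ugcg, which encodes glucosylceramide synthase, the first enzyme of glycosphingolipid synthesis, stood at 42269, 25933 and 38426 in thymus and at 17199, 10823 and 12447 in liver (log2 fold change -1.39 ± 0.24, limma adjusted p = 0.0076). Ptpn5, a phosphatase gene that acts on MAP kinases, stood at 1860, 2576 and 1425 in thymus and at 1.72, 42.0 and 128 in liver (-6.26 ± 0.94, limma adjusted p = 0.0025). Ly6a, the gene of the surface antigen Sca-1, was higher in liver, at 1059, 740 and 2227 in thymus and 3967, 9562 and 9240 in liver (2.55 ± 0.45, limma adjusted p = 0.0098). For each of the 3 the tissues lay apart, with the closest approach in Ugcg. Adgre5, the adhesion receptor CD97 of leukocytes, stood at 20020, 8484 and 12393 in thymus and at 31545, 36310 and 37422 in liver (1.45 ± 0.27, limma adjusted p = 0.013). Nedd9, an adaptor of integrin and receptor signals in lymphocyte migration, stood at 4857, 5312 and 4604 in thymus and at 11121, 12304 and 12785 in liver (1.29 ± 0.27, limma adjusted p = 0.027). Liver values of Nedd9 were about as close to each other as its thymus values. Emb, the gene of embigin, a partner of monocarboxylate transporters, stood at 0.0213, 10.4 and 57.7 in thymus and at 308, 1272 and 1358 in liver (6.52 ± 1.17, limma adjusted p = 0.011). The monocarboxylate and aromatic amino acid transporter gene Slc16a10 was lower, at 6958, 3120 and 4244 in thymus and 1556, 1058 and 873 in liver (-2.0 ± 0.42, limma adjusted p = 0.029). Ptpn5 kept its call without each library, with a log2 fold change of -4.67 without liver library 1 and -7.46 without liver library 3. Ugcg lost its call without liver library 2 (-1.25), Ly6a, Adgre5 and Emb without liver library 2 (2.33, 1.42 and 6.2) or 3 (2.35, 1.4 and 6.15), Nedd9 without thymus library 1 (1.28) or any liver library (1.25 to 1.35), and Slc16a10 without thymus library 1 (-1.69) or liver library 2 (-1.95) or 3 (-1.81). The log2 fold change of Emb was 4.97 without thymus library 1, 7.89 without thymus library 3 and 3.79 without thymus libraries 1 and 2 together.

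Cell cycle genes had positive fold changes in 25 of 29 tested members, with a median of 1.74, and 0 were called. Mki67, the gene of the proliferation antigen Ki-67, stood at 1670, 2098 and 2380 in thymus and at 7015, 3813 and 7571 in liver (log2 fold change 1.53, limma adjusted p = 0.17). In 6 of the 29 all liver values were above all thymus values, against 9.32% of all tested genes. Among cytotoxic effector genes 1 of 18 was called, against 0.754% of all tested genes. It was Ctsc, the protease that activates granzymes, at 4559, 3664 and 2263 in thymus and 1131, 1020 and 885 in liver (-1.74 ± 0.38, limma adjusted p = 0.036). Its call was lost without any library but thymus library 3 (-2.02 to -1.51 over the 6 fits). Glycolysis (21 tested), type I interferon response (27), immediate early and AP-1 genes (22) and mitochondrially encoded genes (9) had 0 calls, with medians of 0.55, -0.14, 0.40 and -0.51. With 0.754% of all tested genes called, 0 calls in lists of these sizes is no result about their members.

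**Figure D4:**
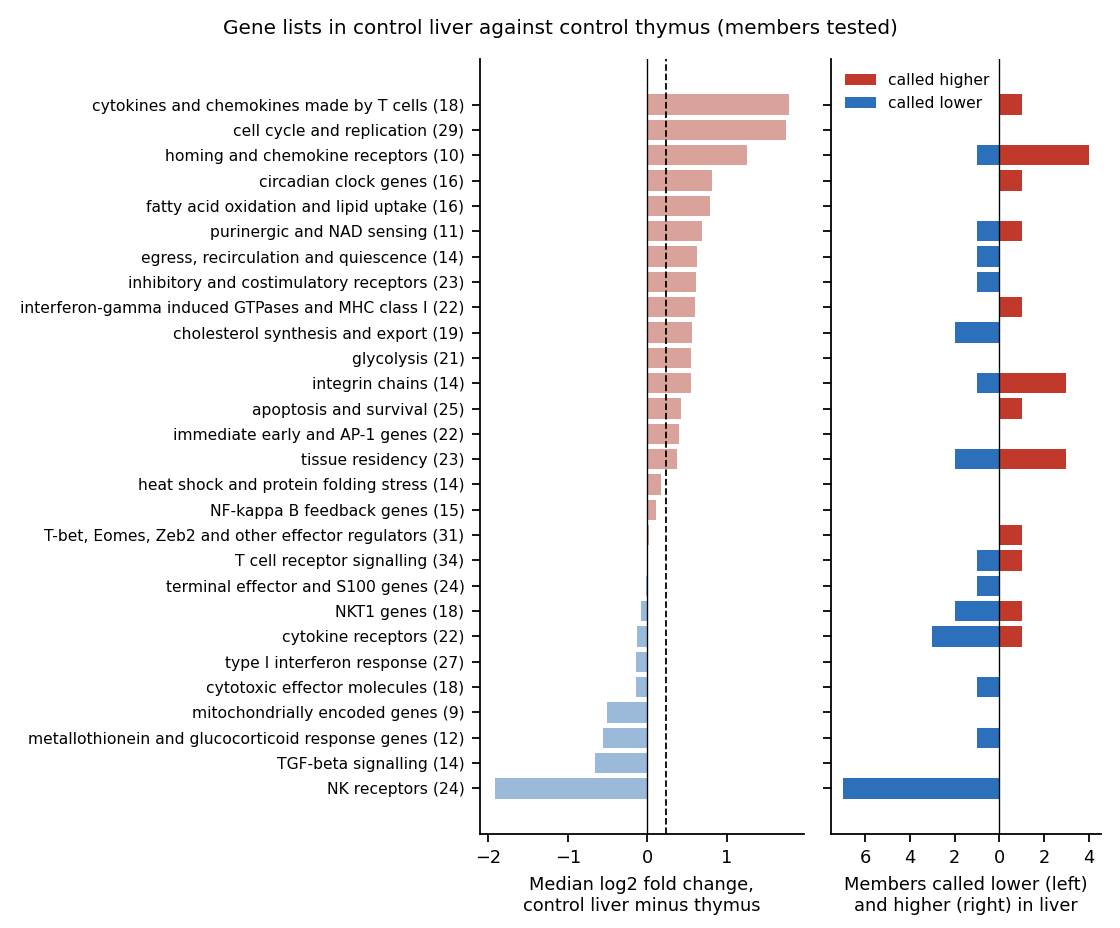
The left panel gives the median log2 fold change, control liver minus thymus, of each gene list with the number of members tested in brackets, and the right panel counts members called lower (blue, to the left) and higher (red, to the right). The NK receptor list has the lowest median, -1.92, and the most calls, 7, and the dashed line marks the median of all tested genes, 0.23.

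Some called genes had no or almost no reads in a whole tissue. In thymus 9 of the 46 genes called higher had 0 reads in all 3 libraries. In thymus libraries 1 and 2, the 2 with the most genes without a read, 11 of the 46 (23.9%) had 0 reads in both. Over all tested genes this share was 3.48%. Taking the liver mean against a floor of 3 reads per library, Pak6 was at least 191-fold higher in liver, Casp1 at least 144-fold, Tefm at least 113-fold, Kdelc1 at least 57.1-fold and Itga5, the fibronectin receptor alpha chain, at least 22.9-fold. In liver Tefm stood at 726, 184 and 283 and Kdelc1 at 424, 85.9 and 95.3, both highest in library 1. Casp1 encodes caspase-1, the inflammasome protease, and stood at 684, 501 and 343 in liver. Mmp9, a gelatinase gene, stood at 3430, 3033 and 3585 in liver against 2 reads in thymus, both in library 3, a ratio of 4156 (95% counting interval 1150 to 34330). The fold change of Mmp9 was called (limma adjusted p = 0.0010) and kept its call without each library, at 11.67 without thymus library 3. In the other direction Tgfa and Apol9a had 0 reads in liver and were at least 65.0-fold and 38.4-fold lower there. Such bounds use the mean of the higher tissue, so single libraries can lie under them. Bounds and intervals cover counting error only. Casp1 kept its call without each library. Pak6, Tefm, Kdelc1, Itga5, Tgfa and Apol9a each lost theirs without any 1 of the 3 liver libraries, Pak6 and Tgfa also without thymus library 1, and Kdelc1, Itga5 and Apol9a also without thymus library 1 or 2.

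Thymus libraries 1 and 2, the 2 with the most genes without a read, were also left out together. Without both of them 28 genes were called, 15 higher and 13 lower, with the 1 thymus library left assumed to vary like the other groups. Styk1, Il7r, Klrd1, Klra5, Ccr9, Themis and P2rx7 were called in that fit too, and Mmp9, Cxcr6, Il18r1 and Klra9 were not. The log2 fold changes of those 4 were then 9.88, 0.94, -2.52 and -4.71, against 11.07, 1.30, -2.81 and -5.39 in all libraries.

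Markers of other cells were measured for a sort that could hold them. Hepatocyte markers summed to 137 to 868 in the thymus libraries and to 1533 to 2094 in the liver libraries. Alb, the albumin gene, stood at 0.0213, 268 and 84.0 in thymus and 1288, 1588 and 1172 in liver. Of 6 tested, 0 were called, where 0.754% of all tested genes were. The 6 had a median log2 fold change of 5.25. In 5 of the 6 all liver values lay above all thymus values, and in 1 below, against 9.32% and 6.52% of all tested genes. Endothelial markers summed to 489 to 1631 and 3141 to 4152, B cell markers to 3507 to 5376 and 5862 to 8218, and dendritic cell and MHC class II genes to 196 to 914 and 942 to 2526, with 0 called in each. In that order 3, 2 and 4 genes were tested, with medians of 1.77, 1.04 and 4.34. All liver values lay above all thymus values in 2, 0 and 3 of them. With so few genes tested, 0 calls says little about such cells. Kupffer cell and macrophage markers summed to 0.187 to 279 and 66.2 to 1190. Of 12 neutrophil markers 1 was in the table, and that was Mmp9. Immature thymocyte markers made up 0.112% to 0.123% of a thymus library and 0.140% to 0.151% of a liver library, with 2 of 8 tested called, Ccr9 and Themis, both higher in liver, and Satb1, the most abundant of them, at a log2 fold change of -0.43. NK cell and ILC1 markers made up 0.201% to 0.226% in thymus and 0.0482% to 0.0835% in liver, with 2 of 10 called lower, Klrk1 and Il18r1, while Ncr1, an NK cell marker with 0 reads in thymus, stood at 616, 13.7 and 131 in liver. As shares of a library's total, all these lists but that of Kupffer cells differed between the tissues without overlap (exact two-sided permutation p = 0.1, the smallest possible, and 0.145 adjusted over 16 measures of the libraries). The part of such cells in the differences above was not tested. Of 12 NKT2 genes tested 0 were called (median 0.73). Of 5 NKT17 genes tested 1 was called higher, Rora, and 1 lower, Il7r (median 1.48), where 0.754% of all tested genes were called. The NKT17 list made up 0.136% to 0.165% of a thymus library and 0.0471% to 0.0657% of a liver library. For the NKT2 list these shares were 0.0582% to 0.1068% and 0.1073% to 0.1245%.

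The same contrast in cKO cells, which uses the other 6 libraries but the same estimate of the spread, called 24 genes (0.21%). Of the 86 genes, 77 had the same sign in cKO cells, 40 of 46 among the higher and 37 of 40 among the lower, and 11 were called there in the same direction. In 54 of the 86 the cKO libraries of the 2 tissues did not overlap in the same direction, and in 0 in the opposite one, where over all tested genes 16.4% did not overlap in cKO cells (8.49% with liver above and 7.86% with liver below). Il7r, Klrd1, Klra5, Itgae and Abca1 were called in both genotypes, with log2 fold changes in cKO cells of -1.86, -1.56, -2.58, -5.18 and -3.39. Other genes called in control cells lay near 0 in cKO cells: Klra1 at 0.10, Cxcr6 at 0.30, Il2rb at -0.22, Rora at 0.03, Itgb3 at -0.44 and Mmp9 at -0.07. For none of these 6 was the difference between the genotypes called in limma, at adjusted p-values of 0.098 to 0.75. The genes were chosen for their effect in control cells, so a smaller effect in cKO cells is not read as a difference. Over all tested genes the difference was called for Styk1 alone by limma, with 654 genes at an unadjusted p under 0.05, for 3 genes by edgeR and for 66 by DESeq2.

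**Figure D5:**
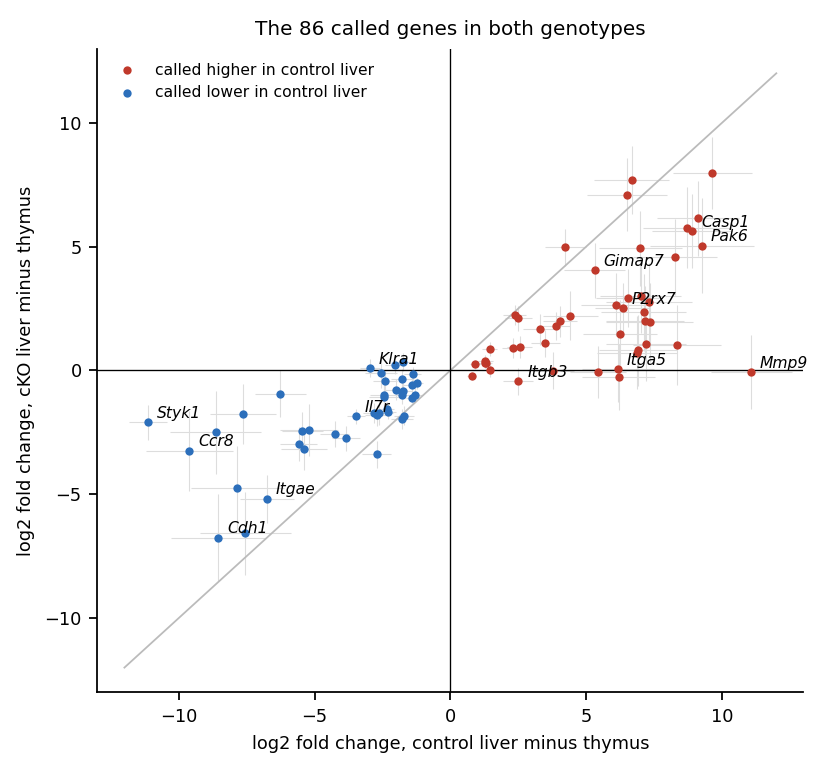
Each point is 1 of the 86 genes called in control cells, with its log2 fold change, liver minus thymus, in control cells on the x axis and in cKO cells on the y axis, and thin lines are SEs. Points on the grey diagonal would be equal in both. Most lie in the quadrants of equal sign (77 of 86), Styk1 lies at -11.12 and -2.10, and Mmp9 at 11.07 and -0.07.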

How the data were processed

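RNA-seq was carried out on 12 libraries of sorted CD1d-tetramer+ YFP+ cells, 3 per group. Per the labels' protocols, RNeasy mini kits were used to isolate RNA and Nugen's Ovation Ultralow kit to make libraries. The submitters' processing notes list STAR, TopHat2 2.1.0, HTSeq 0.6.1, Trimmomatic 0.33, DESeq2 and build mm10, without roles. Which aligner made the values, whether counting used strand and how it treated shared reads are not given in the sources used here. The authors deposited 1 table of 14004 genes, used as a signal: counts adjusted for library size, neither whole nor negative. A negative binomial quantile adjustment inferred from the values (fitted dispersion 1.43), which no source states, was inverted. It placed 96.9% of values within 0.1 of a whole read (91.3% in control liver library 3, whose reads rest on this inversion alone). These reads served for depth, floors, edgeR and DESeq2.

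Tests were run in R 4.3.3 with limma 3.58.1 (lmFit, contrasts, eBayes with trend) on log2(value + 1), a scale that understates changes of low genes. All 12 libraries entered 1 model with a mean for each of 4 groups (8 residual and 9.78 prior degrees of freedom), which share 1 estimate of the spread. Two-sided p-values were adjusted by Benjamini-Hochberg over all tested genes, at a threshold of 0.05. Of 14004 Ensembl identifiers, 13363 (95.4%) matched a symbol in GENCODE's annotation of GRCm38, the assembly mm10 names. Counting intervals are exact conditional binomial at 95%. Scripts were tested on simulated data. One gene among those the rule named is not reported here.

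The comparison, the gene lists and the rule for named genes were chosen with earlier results of these data known. The rule named, among called genes without overlap, the 15 largest rises and 15 largest falls whose higher tissue had a mean of 50 or more, leaving out predicted genes, Rik genes, pseudogenes, receptor segments and identifiers without a symbol, which leaves out 9 called genes. It added the 10 called genes of smallest adjusted p, up to 4 called and 2 other members of each list, Ets1, Tbx21, Zbtb16 and Styk1, and up to 5 genes per direction with 0 reads in a tissue. Ccr2, Klrc2, Socs2, Skil, Itga1, Ugcg, Ly6a, Adgre5, Nedd9, Slc16a10, Gzmb in cKO cells, S1pr1 and the neighbours on chromosome 6 were named after their values were seen. Of 83 called genes with a position, 16 overlap another tested gene. Alternatives were other pseudocounts, filters and scalings, fits on the control libraries alone, a replicate block, sample weights, edgeR 4.0.16, DESeq2 1.42.0 and libraries left out.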

Additional observations from a re-analysis of the deposited data

Results flagged for a closer look

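The tissue effects of 3 genes in control and cKO cells mark them for a second look, and the difference passed the test for Styk1 alone. For Styk1 the difference of the tissue effects, control minus cKO, was -9.03 on the log2 scale and was called by limma's test of that difference (adjusted p = 0.00046).

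Gzmb, the granzyme B gene, lay lower in control liver than in control thymus in every library (15045, 17618 and 14109 in thymus, 7927, 5937 and 10279 in liver) and higher in every cKO liver library (39803, 26034 and 34870 in thymus, 71896, 54843 and 46204 in liver). The difference of its tissue effects was -1.76 and was not called (limma adjusted p = 0.14). S1pr1, the receptor for exit into blood, stood at 752, 841 and 1039 in control thymus and at 464, 339 and 128 in control liver, and at 671, 1732 and 1255 in cKO thymus and 5086, 2445 and 2535 in cKO liver. The difference of its tissue effects was -3.15 and was not called (limma adjusted p = 0.66). Both genes were marked because all libraries of one genotype lay one way and all of the other the opposite way. Only the called genes and other genes picked for description were searched for this pattern, not all tested genes. Over all tested genes the tissues did not overlap, in either direction, for 15.8% in control cells and 16.4% in cKO cells.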

How the results depend on the processing

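Against 86 genes called, limma called 8 in the 6 control libraries alone, 53 with sample weights, 28 without thymus libraries 1 and 2 together and 20 without the 2 libraries of fewest reads. On recovered reads edgeR called 48 and DESeq2 352. Without single libraries the count ran from 29 to 438, the highest without thymus library 3. Same-numbered control libraries deviated together little (r = 0.073, 0.013 and 0.057), and liver library 2 correlated better with thymus library 3 (r = 0.05) than with its own number, so the pairing rests on a number alone. A replicate block gave 33 calls in the 6 control libraries and 55 in all 12. The difference of the tissue effects had 1 call, but 4 with a pseudocount of 10, 2 after TMM, 2 after quantile normalization, 1 to 10 without single libraries, 3 by edgeR and 66 by DESeq2. Of 782 medians of gene lists under other settings, 703 moved by less than their spread and 79 by more. Tbx21, not called in any setting, turned to -0.19 after TMM, ran from -0.29 to 0.73 without single libraries and turned to -0.12 by edgeR and -0.16 by DESeq2, and Cd3e to -0.025 after TMM; the cause was not tested. Liver library 3, at 3.87 M reads, limits what can be said of low genes.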

Other observations

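Several other genes, 3 of 4 of them transcription factor genes, lay apart between the tissues without passing the test. Irf4, a transcription factor gene that antigen receptor signals induce, stood at 0.0213, 1.18 and 127 in thymus and at 2578, 887 and 1784 in liver (log2 fold change 7.93 ± 1.86, limma adjusted p = 0.056). The fold change of Irf4 ran from 6.58 without thymus library 1 to 10.06 without thymus library 3, where it was called, and was 3.65 (limma adjusted p = 0.575) without thymus libraries 1 and 2 together. Bhlhe40, a transcription factor gene of resident T cells, stood at 1679, 2901 and 1272 in thymus and at 6008, 4310 and 4948 in liver (1.46 ± 0.39, limma adjusted p = 0.096). Klf2, which drives genes of egress from tissue, stood at 2697, 171 and 300 in thymus and at 75.7, 28.3 and 55.7 in liver (-3.37 ± 1.16, limma adjusted p = 0.20). Ahnak, a large scaffold protein gene, stood at 70688, 71325 and 64648 in thymus and at 47412, 47678 and 34704 in liver (-0.68 ± 0.17, limma adjusted p = 0.071). Without thymus library 1 the fold change of Klf2 was -2.18, Bhlhe40 was called without thymus library 2 and Ahnak without thymus library 3. In each of the 4 genes the 3 liver values lay on one side of the 3 thymus values, which was so for 15.8% of all tested genes.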
